A study of Mus musculus with 51 samples.

Results

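The solute carrier family 25 (SLC25) holds the transport proteins that carry metabolites across the inner mitochondrial membrane. The genes described here are the protein-coding genes of the deposited count table whose mouse symbol starts with Slc25a and a digit and that had 10 or more counts in at least 5 of the 51 libraries. This gave 41 carriers, out of 47 protein-coding genes with such a symbol and 53801 genes in the table. The 6 that the count rule left out were Slc25a21, Slc25a31, Slc25a41, Slc25a43, Slc25a48 and Slc25a54. Their highest counts in any library were between 1 (Slc25a43) and 29 (Slc25a41), and Slc25a41 reached 10 counts in 3 libraries, the most of the 6. Just inside the rule were Slc25a2, with 10 counts in 13 libraries, and Slc25a18, with 10 counts in 25. All 41 passed the filter on low counts and were tested among 17015 genes.

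The cells were C3H/10T1/2-SAM, a mouse mesenchymal line used as a model of pre-adipocytes, the precursors of fat cells. All of them, controls included, carry dCas9-VP64, a Cas9 that cannot cut DNA joined to an activator, and MS2-P65-HSF1, a second activator that guide RNAs recruit. A guide that binds near the start of a gene thus raises transcription of the cell's own copy. Cells received 250 ng of plasmid DNA in one of 3 forms. EV was the empty vector without a guide, P carried the guide that targets Pparg, and PY combined that guide with one that targets Ybx1. Every group, EV included, was given 5 µM rosiglitazone, a synthetic ligand of PPARG, at 48 hours after transfection, which is day 0. RNA was taken on day 0, day 2 and day 4. EV held 5, 6 and 6 libraries on the 3 days, P held 5, 6 and 6, and PY held 6, 5 and 6. The libraries of a group came from different ones of 6 numbered experiments. The labels do not say what else separates them, so p-values measure the spread between these libraries. Replicate numbers count the libraries within a group. P day 0 replicates 2 to 5 came from experiments 3 to 6, and PY day 2 replicates 4 and 5 from experiments 5 and 6. In all other libraries the replicate number is the experiment number. The cells are 1 cultured line, and bulk RNA cannot tell a larger share of cells that express a carrier from more RNA per cell.

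Total counts per library ran from 3381870 to 114566739 with a median of 22366559, and the 2 smallest held 3381870 and 4117244. Levels are given as CPM, counts relative to the library size after scaling between libraries. Pparg, the target of the first guide, was at 41.8 to 76.6 CPM in EV and 202 to 370.0 CPM in P on day 4. Ybx1, the target of the second, was at 461 to 664 CPM in P and 1363 to 2426 CPM in PY on day 4. The summed level of 8 fat cell markers (Adipoq, Fabp4, Plin1, Cidec, Cebpa, Lipe, Cfd and Pparg) was 84.8 to 358 CPM in EV, 2716 to 9018 CPM in P and 1426 to 10599 CPM in PY on day 4. The summed level of 7 mesenchymal markers was 12960.3 to 26005, 9444 to 21789 and 9088 to 17523 CPM in the same groups. Macrophage markers (Ptprc, Cd68, Adgre1, Csf1r and Lyz2) summed to at most 10.1 CPM in any library, with Ptprc and Adgre1 under 1 CPM in all of them. Cd68 reached 1 CPM in at least 1 library of every group, and Csf1r and Lyz2 did so in some groups. The 4 endothelial markers (Pecam1, Cdh5, Kdr and Tek) summed to 23.6 to 48.9, 18.5 to 39.3 and 8.75 to 42.5 CPM in EV, P and PY on day 4. Cdh5 was under 1 CPM in every library, and Pecam1 and Kdr were in every library of days 2 and 4. Tek went the other way and made up most of the sum on day 4. The 4 epithelial markers (Epcam, Cdh1, Krt8 and Krt18) summed to 1.13 to 5.60, 0.503 to 4.64 and 1.05 to 15.2 CPM, with Epcam under 1 CPM in every library. Cdh1 reached 1 CPM in at least 1 library of every group, and Krt8 and Krt18 did so in some groups.

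Carriers of this family share a fold of repeated membrane-spanning units with a single substrate site that opens in turn to either side of the membrane. They link the mitochondrial matrix to the rest of the cell: citrate leaves for fat synthesis, fatty acids enter bound to carnitine, ADP enters as ATP leaves, and phosphate, amino acids, cofactors and iron each have carriers of their own. In fat cells, export of citrate and exchange of dicarboxylates feed the cytosol with the carbon and reducing power used to make fatty acids, while carnitine carriers serve their oxidation.

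The carriers differed widely in level. Per kilobase of exon, averaged over the 9 group means, the ADP/ATP carriers Slc25a4 (167 CPM per kb) and Slc25a5 (161) stood first, followed by the citrate carrier Slc25a1 (67.9), the phosphate carrier Slc25a3 (64.2) and the glutathione carrier Slc25a39 (50.3). The lowest was the ATP-Mg/phosphate carrier Slc25a23 at 0.195 CPM per kb, close to Slc25a2 (0.246) and Slc25a18 (0.254). This order depends on the length used, the union of annotated exons, which can be longer than the mRNA present. Slc25a3 (5550 bases) had 476295 counts in all libraries together and Slc25a1 (2164 bases) had 183940. Slc25a4, Slc25a5 and Slc25a3 made up 51.0% ± 3.42 (SD, n = 6) of the summed per-kb level of the 41 carriers in EV on day 4. The summed level on day 4 was 671 ± 103 CPM per kb in EV, 1012 ± 184 in P and 1062 ± 168 in PY (SD, n = 6 each). The libraries of EV lay between 583 and 828 and those of P between 804 and 1317, so the ranges overlapped at their ends.

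**Figure D1:**
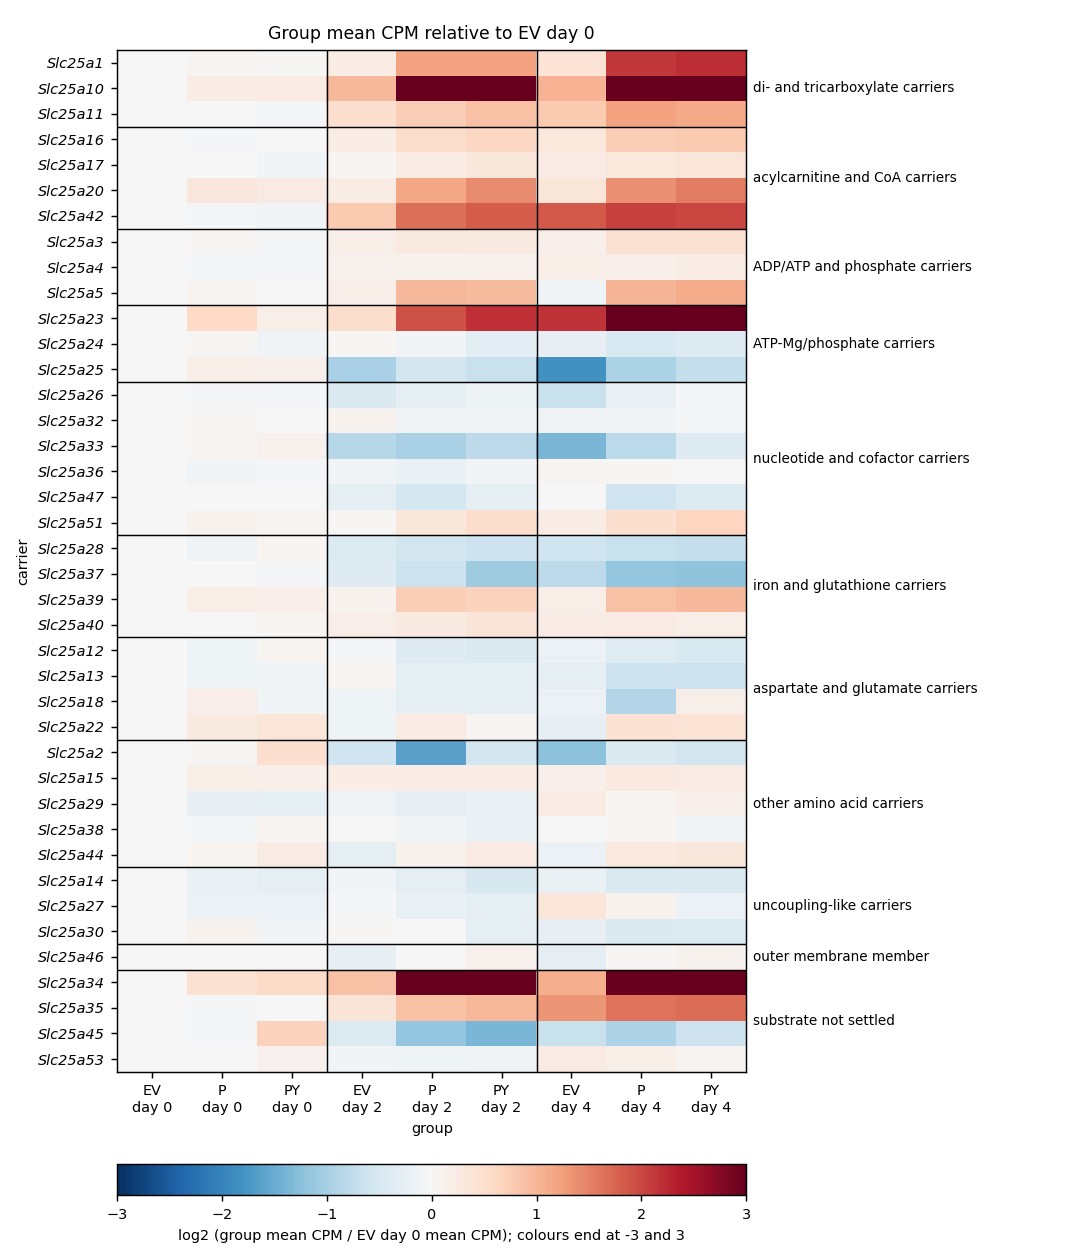
Group mean CPM of 40 carriers (vertical axis, grouped by role) in the 9 groups (horizontal axis), as the log2 ratio to the EV day 0 mean; red is higher and blue lower. Slc25a10, Slc25a34, Slc25a1 and Slc25a20 are redder in P and PY than in EV on days 2 and 4. In EV itself Slc25a10 and Slc25a34 also rise, to log2 ratios of 1.05 and 1.09 on day 4, as do Slc25a42 and Slc25a23. Slc25a25, Slc25a33 and Slc25a37 turn blue with time.

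The first comparison asked how the carriers differed between cells with the Pparg guide and control cells on each day. On day 4, 9 of the 41 carriers were higher in P and none lower at an adjusted p under 0.05 (edgeR quasi-likelihood test, Benjamini-Hochberg over the 17015 genes). Of all genes tested, 5.18% were higher and 0.2% lower. Among the 9 were Slc25a10, Slc25a34, Slc25a1, Slc25a5, Slc25a20, Slc25a22, Slc25a39 and Slc25a16. The 9 had folds from 1.36 to 7.14, and each was higher in 6 of 6 experiments. The median log2 fold change of the 41 carriers was 0.22, against -0.06 for all genes, and 26 carriers had a positive value. With the experiment number as a block, 13 carriers were higher and 1 lower (all genes: 7.92% higher, 2.21% lower). The block added Slc25a25, Slc25a44, Slc25a26 and Slc25a46 as higher and Slc25a37 as lower.

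**Figure D2:**
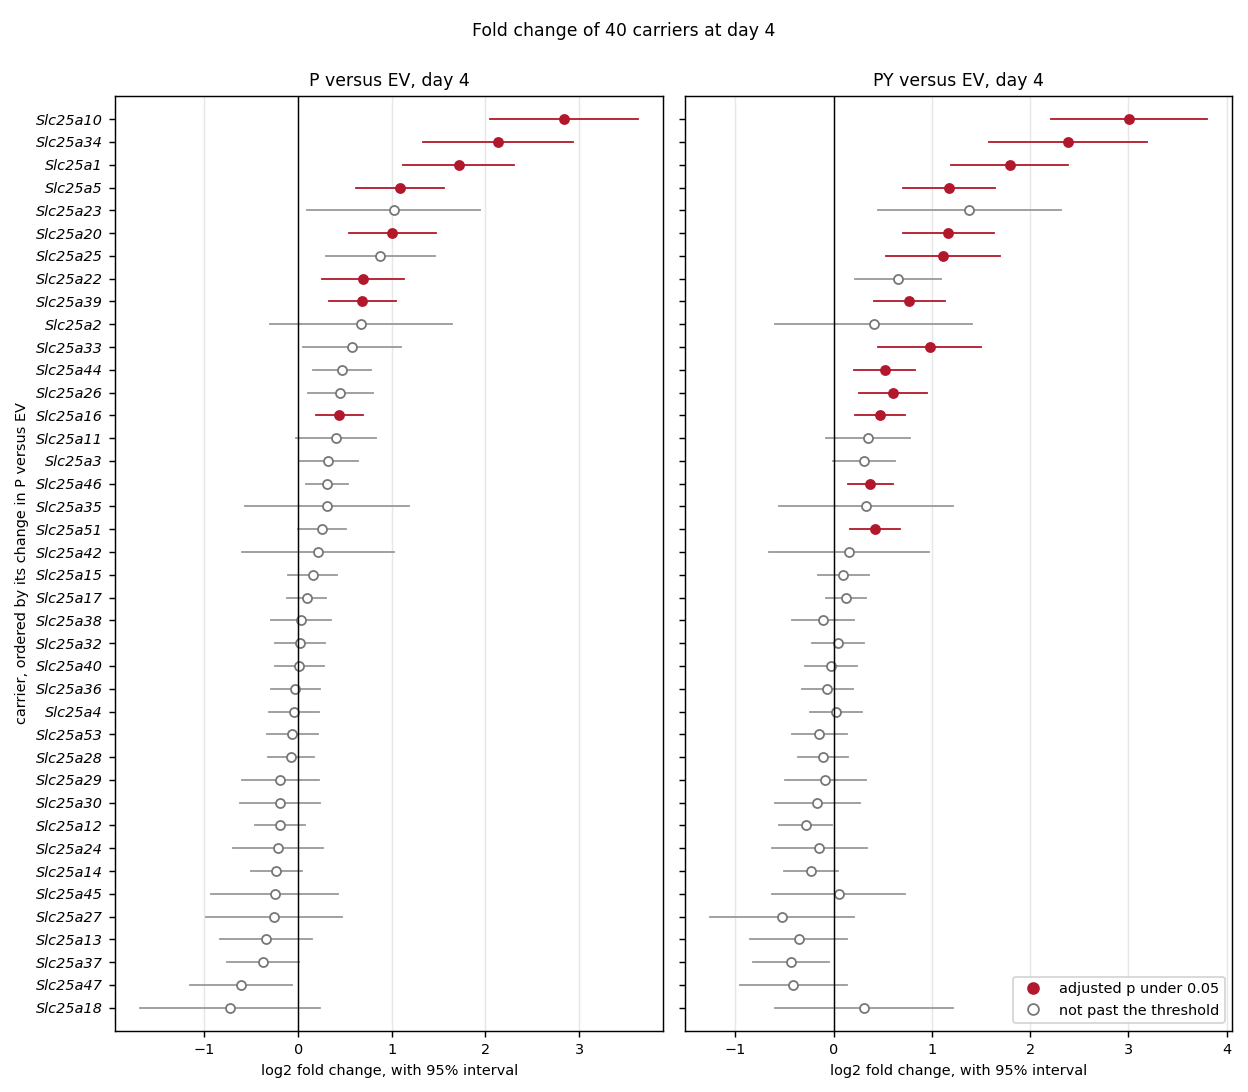
Log2 fold change of 40 carriers on day 4 (horizontal axis) with its 95% interval (line), for P against EV on the left and PY against EV on the right; filled red points passed an adjusted p of 0.05. Of the carriers drawn, 8 passed in P and all 8 were higher, with Slc25a10 at the top (2.84); in PY, 13 passed. The EV libraries are the same in both panels.

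Carriers of di- and tricarboxylates held the largest difference: 2 of the 3 members rose on day 4, Slc25a10 and Slc25a1 (all genes: 5.18% higher). Slc25a10 (ENSMUSG00000025792, chromosome 11, 120491840 to 120499187, forward strand, build GRCm38) encodes the dicarboxylate carrier, which exchanges malate and succinate for phosphate. It was at 22.5 to 31.9 CPM in EV day 4 (median 27.2, n = 6) and 93.1 to 354 CPM in P day 4 (median 157, n = 6). Every P library lay above every EV library, and the fitted difference was 7.14-fold (95% interval 4.12 to 12.4, adjusted p = 1.85e-06). The difference was already present on day 2, with 21.2 to 29.3 CPM in EV and 43.7 to 259 CPM in P, 4.50-fold (95% interval 2.63 to 7.69, adjusted p = 1.86e-04). On day 0 the ranges of EV and P overlapped (10.7 to 17.2 and 10.9 to 18.3 CPM).

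Slc25a1 (ENSMUSG00000003528, chromosome 16, 17925223 to 17928219, reverse strand) encodes the citrate carrier, which exports citrate for the synthesis of fatty acids and sterols. On day 4 it was at 70.7 to 131 CPM in EV day 4 (median 85.8, n = 6) and 173 to 491 CPM in P day 4 (median 239, n = 6), and again no P library fell into the EV range. The fold was 3.28 (95% interval 2.17 to 4.95, adjusted p = 6.83e-05). On day 2 it was at 67.5 to 95.0 CPM in EV and 85.1 to 336 CPM in P, 1.99-fold (95% interval 1.33 to 2.99, adjusted p = 0.0482). The highest of the P libraries of day 2 was replicate 5, and without it the fold was 1.56 (adjusted p = 0.490). The day 2 call was also lost without any 1 of the 6 EV libraries or P replicates 2 or 6, with adjusted p up to 0.110. Slc25a11, the oxoglutarate carrier of the malate-aspartate shuttle, was at 62.3 to 104 CPM in EV and 68.4 to 142 CPM in P on day 4, with overlapping ranges and a log2 difference of 0.40 ± 0.21 (SE) that did not pass (adjusted p = 0.444).

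The sequences before the starts of Slc25a10, Slc25a1 and Slc25a34 are shown because these carriers had the largest folds in P, and PPARG and other factors of fat cells act through promoters as well as distant sites. They are the 250 bases before the RefSeq start (build GRCm38.p6, 5′ to 3′ on the gene's strand). Slc25a10 is at chr11:120491587-120491836 on the forward strand, Slc25a1 at chr16:17928220-17928469 and Slc25a34 at chr4:141623835-141624084, both on the reverse strand. Capitals mark matches to 6 searched motifs, read on both strands: the PPAR-type direct repeat (AGGNCA, any base, AGGNCA), a single AGGTCA, the ERR element TCAAGGTCA, which contains AGGTCA, the NRF1 motif (GCGCA, any base, GCGC), the E-box CACGTG and the sterol response element TCACNCCAC.
Slc25a10: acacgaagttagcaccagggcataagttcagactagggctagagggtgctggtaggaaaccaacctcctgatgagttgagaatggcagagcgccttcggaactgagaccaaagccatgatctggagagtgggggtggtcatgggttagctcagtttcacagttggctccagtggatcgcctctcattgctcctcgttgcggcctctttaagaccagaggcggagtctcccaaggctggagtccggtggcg
Slc25a1: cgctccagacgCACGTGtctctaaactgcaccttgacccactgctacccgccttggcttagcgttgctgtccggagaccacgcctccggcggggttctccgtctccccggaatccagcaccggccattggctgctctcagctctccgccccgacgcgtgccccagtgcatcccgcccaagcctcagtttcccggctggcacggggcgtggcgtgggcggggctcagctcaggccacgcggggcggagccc
Slc25a34: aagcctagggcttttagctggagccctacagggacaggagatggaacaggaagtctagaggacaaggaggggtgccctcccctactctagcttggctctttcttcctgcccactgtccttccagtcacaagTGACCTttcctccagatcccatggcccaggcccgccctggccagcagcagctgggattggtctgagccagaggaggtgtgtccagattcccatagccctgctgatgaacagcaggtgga
In Slc25a34 the capitals are an AGGTCA on the other strand, 119 bases before the start, and in Slc25a1 they are an E-box 239 bases before it. Slc25a10 held none of the 6 motifs in this window. RefSeq promoters of 300 bases (the 250 shown and 50 after the start) were at hand for 31 of the 41 carriers, 40 promoters in all. The direct repeat was in 0 of the 40 and in 0.381% of 32851 mouse promoters of the same length. AGGTCA was in 4 of the 40 (Slc25a34, Slc25a39, Slc25a45 and Slc25a47) and in 16.3% of all. The E-box was in 7 of the 40, those of Slc25a1, Slc25a13, Slc25a14, Slc25a15, Slc25a33 and Slc25a36, and in 7.15% of all. The NRF1 motif was in 1 (Slc25a3, 4.60% of all), the sterol element in 1 (Slc25a18, 1.24% of all) and the ERR element in 0 (0.423% of all). These are matches of letters in a short window and say nothing about binding.

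**Figure D3:**
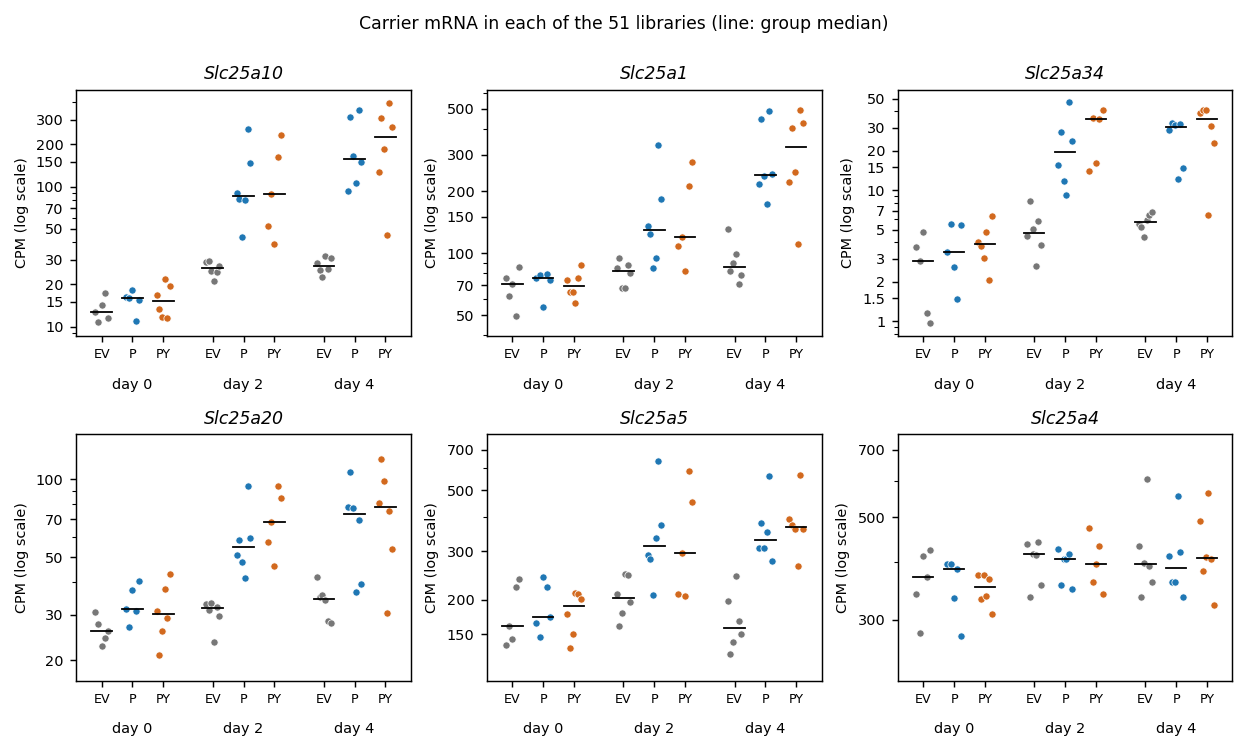
CPM of 6 carriers in each library (points, logarithmic vertical axis) by group (horizontal axis; grey EV, blue P, orange PY); the black lines are group medians. Slc25a10 and Slc25a1 in P on day 4 lie above all EV libraries of that day, Slc25a5 does so with a smaller gap, and Slc25a4 overlaps between the groups on every day. The lowest PY library of day 4 in the first 4 panels is replicate 4.

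Of the 4 carriers of acylcarnitine and coenzyme A, 2 rose in P on day 4 (all genes: 5.18% higher). Slc25a20 (ENSMUSG00000032602, chromosome 9, 108662088 to 108684641, forward strand) encodes the carnitine-acylcarnitine carrier, which brings fatty acids into the matrix for oxidation. It was at 27.9 to 42.1 CPM in EV day 4 (median 34.6, n = 6) and 36.9 to 107 CPM in P day 4 (median 73.5, n = 6). The fold was 2.01 (95% interval 1.46 to 2.77, adjusted p = 0.00273), although the lowest P libraries reached into the EV range. On day 2 the groups did not overlap (23.5 to 33.3 CPM in EV, 41.5 to 94.4 CPM in P), with 1.92-fold (95% interval 1.40 to 2.65, adjusted p = 0.00970). That day 2 call was lost without P day 2 replicate 5 (fold 1.70, adjusted p = 0.0899). Slc25a16, which has been linked to coenzyme A transport, was at 36.0 to 46.5 CPM in EV and 46.7 to 72.5 CPM in P on day 4, a difference of 1.36-fold (95% interval 1.14 to 1.62, adjusted p = 0.0232) with no overlap. Its call was lost without EV day 4 replicates 5 or 6 or P day 4 replicates 2 or 5 (fold 1.29 to 1.34, adjusted p = 0.0655 to 0.0875).

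Slc25a42, the coenzyme A carrier, showed large differences between experiments and little between guides on day 4. It was at 7.66 to 51.6 CPM in EV day 4 (median 16.5, n = 6) and 11.3 to 59.9 CPM in P day 4 (median 18.5, n = 6), and the fold of 1.16 did not pass (95% interval 0.662 to 2.04, adjusted p = 0.907). The same 2 experiments gave the highest values in all 3 transfections. In experiment 2 the values were 51.6 CPM in EV, 59.9 in P and 59.4 in PY, and in experiment 3 they were 36.4, 43.3 and 36.9. On day 2 its fold in P was 1.82, which passed only with the experiment as a block (adjusted p = 0.449 without it, adjusted p = 0.0354 with it). Slc25a17, a carrier of coenzyme A and other cofactors in the peroxisome, did not pass on any day, with a fold of 1.07 on day 4 (95% interval 0.924 to 1.23).

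Of the 2 main ADP/ATP carriers, Slc25a5 rose in P on day 4 and Slc25a4 did not pass. Slc25a5 (ENSMUSG00000016319, chromosome X, 36795651 to 36798807, forward strand) encodes the form of growing cells, and Slc25a4 (ENSMUSG00000031633, chromosome 8, 46206797 to 46211284, reverse strand) the form best known from heart and muscle. Slc25a5 was at 127 to 244 CPM in EV day 4 (median 158, n = 6) and 276 to 561 CPM in P day 4 (median 329.9, n = 6), without overlap, 2.13-fold (95% interval 1.54 to 2.94, adjusted p = 0.00114). Slc25a4 was at 337 to 605 CPM in EV and 336 to 557 CPM in P, with a log2 difference of -0.04 ± 0.13 (SE) and a fold interval of 0.807 to 1.17. Per kb, the ratio of Slc25a5 to Slc25a4 in the same library was 0.580 ± 0.0526 in EV and 1.29 ± 0.358 in P on day 4 (SD, n = 6 each). The EV libraries lay between 0.505 and 0.655 and the P libraries between 0.900 and 1.90. The level of this ratio depends on the exon lengths used as divisors, 1646 bases for Slc25a5 and 2353 for Slc25a4. The same divisors served both groups. On day 2 Slc25a5 was 1.72-fold higher in P (adjusted p = 0.0519; 0.00268 with the experiment block, 0.0292 with DESeq2), with 160.0 to 247 CPM in EV and 207 to 637 CPM in P. Processed copies of Slc25a5 elsewhere in the genome number 7 in the annotation, and their counts summed to 0.300% of its own. Slc25a3, the phosphate carrier that supplies ATP synthase, was at 279 to 486 CPM in EV and 346 to 610.4 CPM in P, and its fold of 1.25 did not pass (adjusted p = 0.375).

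The ATP-Mg/phosphate carriers, which are set by calcium and shift the adenine nucleotide pool of the matrix, had no member past the threshold in P. Slc25a25 was at 17.2 to 37.4 CPM in EV and 26.2 to 67.2 CPM in P on day 4. Its fold of 1.84 (95% interval 1.23 to 2.75) had an adjusted p = 0.0669, or 0.00763 with the experiment block and 0.0430 with DESeq2, and it was higher in 6 of 6 experiments. It also passed without EV day 4 replicate 4 or P day 4 replicate 6. In the other 10 fits with 1 library left out it did not pass (adjusted p up to 0.244). Slc25a23 was low, at 0.465 to 2.70 CPM in EV and 0.935 to 3.97 CPM in P, with a fold of 2.03 (adjusted p = 0.296). Without EV day 4 replicate 2, its highest EV library, the fold was 3.07 (adjusted p = 0.0306). The other 11 fits with 1 library left out did not pass (adjusted p up to 0.666). Over all 12 the log2 difference of Slc25a23 ran from 0.768 to 1.62. Slc25a24 was at 75.4 to 162 and 56.1 to 153 CPM, with a fold of 0.864.

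The 6 carriers of nucleotides and cofactors described here did not pass in P on day 4 in the fit without the block. Slc25a51, the carrier of NAD, was at 63.8 to 81.6 and 62.7 to 116 CPM, with a fold of 1.19 that did not pass (adjusted p = 0.390). Slc25a26, the carrier of S-adenosylmethionine, had a fold of 1.37 (adjusted p = 0.156, 0.0278 with the block). The pyrimidine nucleotide carriers had folds of 1.49 (Slc25a33, adjusted p = 0.298) and 0.978 (Slc25a36), and the folate carrier Slc25a32 had a fold of 1.01. Slc25a47, best known from liver, had a fold of 0.655 (adjusted p = 0.289). Exons of Slc25a33 overlap a gene on the other strand, as do those of Slc25a10, Slc25a11, Slc25a18, Slc25a23, Slc25a25, Slc25a26, Slc25a35, Slc25a37 and Slc25a46. The strand setting of the counting is not given in the sources used here, so their counts can hold reads of the partner gene.

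The iron and glutathione carriers went different ways. Slc25a39, which imports glutathione, was at 93.5 to 135 CPM in EV day 4 (median 116, n = 6) and 132 to 233 CPM in P day 4 (median 189, n = 6), 1.61-fold (95% interval 1.25 to 2.07, adjusted p = 0.0105). The lowest P library lay inside the EV range, and the call was lost without P day 4 replicate 2 (fold 1.52, adjusted p = 0.0511). On day 2 its fold was 1.55 (adjusted p = 0.0351), and that call was lost without EV day 2 replicates 1, 2, 3, 5 or 6 or P day 2 replicates 5 or 6 (fold 1.37 to 1.57, adjusted p = 0.0509 to 0.308). Its relative Slc25a40 had a fold of 1.01 on day 4 (95% interval 0.841 to 1.21). The iron importers, mitoferrin 1 (Slc25a37) and mitoferrin 2 (Slc25a28), had folds of 0.770 and 0.948. Slc25a37 was lower in P in all 6 experiments, at 29.0 to 44.9 CPM in EV and 19.3 to 37.9 CPM in P, and passed only with the experiment block (adjusted p = 0.406 without it, 0.0293 with it).

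Of the 4 carriers of aspartate and glutamate, 1 passed on day 4 (all genes: 5.18% higher, 0.2% lower). Slc25a22, a glutamate carrier, was higher in P on day 4 by 1.62-fold (95% interval 1.20 to 2.19, adjusted p = 0.0457). Its values were 23.9 to 38.1 CPM in EV and 31.0 to 72.7 CPM in P, where replicates 2 and 3 stood at 71.4 and 72.7 CPM. The call was lost without EV day 4 replicates 1, 2, 4, 5 or 6 or P day 4 replicates 2 or 3 (fold 1.44 to 1.63, adjusted p = 0.0657 to 0.255). The aspartate/glutamate carriers of the malate-aspartate shuttle did not pass: Slc25a12 had a fold of 0.872 (adjusted p = 0.625) and Slc25a13 a fold of 0.788 (adjusted p = 0.660). On day 2 Slc25a12 had a fold of 0.785 and was lower in all 6 experiments (adjusted p = 0.221; 0.0369 with the block). Slc25a44, the branched-chain amino acid carrier known from brown fat, was at 48.0 to 78.7 CPM in EV and 55.5 to 116 CPM in P. Its fold of 1.38 had an adjusted p = 0.0662, or 0.00668 with the block, and it was higher in 6 of 6 experiments. It passed without EV day 4 replicates 1, 2 or 3 or P day 4 replicates 4 or 6. In the other 7 fits with 1 library left out it did not pass (adjusted p up to 0.307). The ornithine carriers Slc25a15 and Slc25a2 had folds of 1.11 and 1.60, the glycine carrier Slc25a38 of 1.02 and the basic amino acid carrier Slc25a29 of 0.877, and none passed. The second glutamate carrier, Slc25a18, had a fold of 0.605 (95% interval 0.311 to 1.18).

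Slc25a34 (ENSMUSG00000040740, chromosome 4, 141618824 to 141623821, reverse strand), whose substrate is not settled, had the second largest fold. It was at 4.36 to 6.87 CPM in EV day 4 (median 5.73, n = 6) and 12.2 to 32.4 CPM in P day 4 (median 30.3, n = 6), without overlap, 4.40-fold (95% interval 2.52 to 7.65, adjusted p = 1.87e-04). On day 2 it was at 2.64 to 8.21 CPM in EV and 9.27 to 46.8 CPM in P, 4.50-fold (95% interval 2.58 to 7.85, adjusted p = 3.38e-04), again without overlap. Its close relative Slc25a35 was at 2.19 to 6.82 and 2.26 to 8.71 CPM on day 4, with a fold of 1.24 (95% interval 0.673 to 2.27) that did not pass. Slc25a45 had a fold of 0.591 on day 2 and was lower in P in all 6 experiments (adjusted p = 0.386; 0.0129 with the block). Slc25a53 had a fold of 0.958 on day 4 (adjusted p = 0.926). The uncoupling-like carriers, which resemble the uncoupling proteins of fat and muscle, did not pass, with folds of 0.851 (Slc25a14), 0.837 (Slc25a27) and 0.873 (Slc25a30) on day 4. Slc25a46, a member in the outer membrane that acts in the shaping of mitochondria, had a fold of 1.24 (adjusted p = 0.130; 0.0439 with the block).

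On day 0 no carrier passed in P against EV, with edgeR or with DESeq2, where 0.00588% of all genes passed in edgeR. At an unadjusted p under 0.05 there were 0 of the 41 carriers and 241 of the 17015 genes tested. On day 2, 5 carriers were higher in P and none lower, against 2.78% and 0.0588% of all genes. They were Slc25a34, Slc25a10, Slc25a1, Slc25a20 and Slc25a39. With the experiment block the day 2 count was 7 higher and 2 lower (all genes: 4.65% higher, 0.817% lower), and without P day 2 replicate 5 it was 2 in all. It was 3 without any 1 of EV day 2 replicates 1, 2, 3, 5 or 6 or P day 2 replicate 6. The P and EV libraries did not overlap for 3 carriers on day 2 and 6 on day 4, all higher in P, against 2.17% and 3% of all genes in that direction. A test of whether the P difference itself changed between day 0 and day 4 passed for Slc25a10 alone (log2 change of 2.62, adjusted p = 0.0223), where 0.288% of all genes passed as higher and 0% as lower. That call was lost without EV day 0 replicate 4 or P day 4 replicate 2 (fold 5.43 to 5.66, adjusted p = 0.0547 to 0.0583). Without P day 4 replicate 1 or 4 the count was 2. With the block Slc25a1 and Slc25a5 passed as well, where 1.27% of all genes were higher and 0.0529% lower. The PY against P difference did not change past the threshold for any carrier from day 0 to day 4 in edgeR or DESeq2, where 0% of all genes passed. At an unadjusted p under 0.05 there was 1 carrier, and 65 of the 17015 genes tested. Between day 0 and day 2 no carrier passed the P against EV test in edgeR or DESeq2, where 0.0588% of all genes passed in edgeR. At an unadjusted p under 0.05 there were 4 carriers and 546 of the 17015 genes tested.

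Libraries of one guide group differed among themselves in the fat cell markers and in the carriers. In P on day 4 the summed fat cell markers were highest in replicates 2 and 5 (9018 and 8622 CPM). These 2 libraries also held the highest Slc25a10 (312 and 354 CPM) and Slc25a1 (447 and 491 CPM). In PY on day 4, replicate 4 had the lowest marker sum, 1426 CPM, and the lowest Slc25a10 (45.0 CPM), Slc25a34 (6.50 CPM), Slc25a1 (111 CPM) and Slc25a20 (30.5 CPM) of its group. In P on day 2, replicate 5 had the highest marker sum, 8441 CPM, and the highest Slc25a10, Slc25a34, Slc25a1, Slc25a5 and Slc25a20. The order of the markers was not that of every carrier. P day 4 replicate 5 had a lower Slc25a20 (69.7 CPM) than replicate 1 (78.4 CPM), whose marker sum was 3462 CPM. PY day 4 replicate 6, at a marker sum of 7419 CPM, had lower Slc25a34 (22.9 CPM) and Slc25a20 (53.9 CPM) than replicate 1 (38.9 and 80.8 CPM), whose sum was 6141 CPM. In EV on day 4 the marker sum ran over 84.8 to 358 CPM, and Slc25a10 stayed within 22.5 to 31.9 CPM. The part of the number of fat cells in the carrier differences was not tested.

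**Figure D4:**
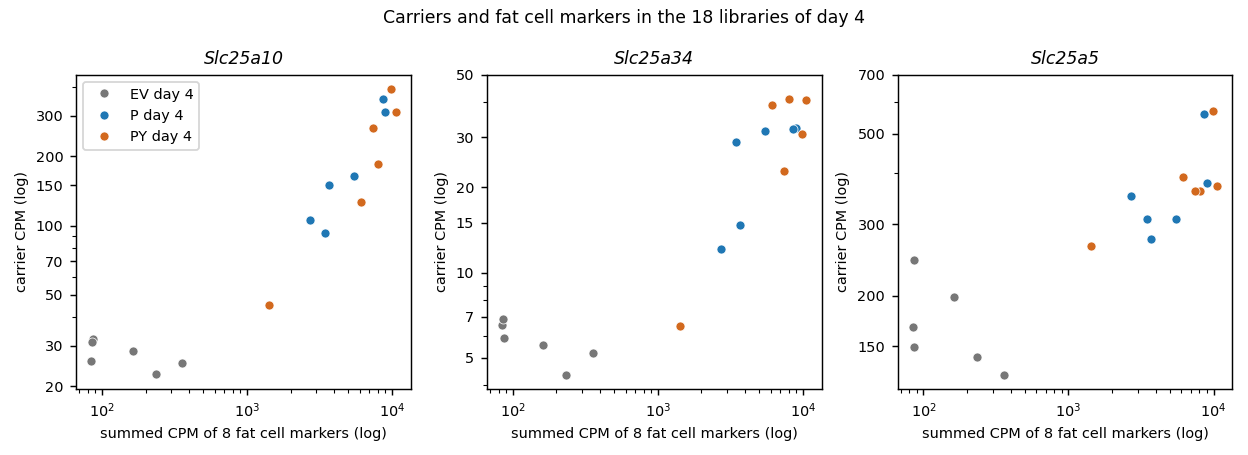
CPM of Slc25a10, Slc25a34 and Slc25a5 (vertical axes, logarithmic) against the summed CPM of 8 fat cell markers (horizontal axes, logarithmic) in the 18 libraries of day 4; grey is EV, blue P and orange PY. The EV libraries form a group at low marker sums, the P and PY libraries lie to the right, and the PY library nearest to EV is replicate 4. The points of one group share a guide, and points of different groups share experiments.

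The comparison of PY with P asked what the added Ybx1 guide did to the carriers. No carrier passed on day 0, 2 or 4 with edgeR, and none did with DESeq2, where 0.0294%, 0.0118% and 0.0176% of all genes passed in edgeR. At an unadjusted p under 0.05 there were 109, 170 and 109 of the 17015 genes tested on the 3 days, and 1 carrier on each day: Slc25a45 on day 0, with a fold of 1.67, Slc25a37 on day 2 (0.749) and Slc25a18 on day 4 (2.05). The 95% interval of the fold reached beyond a factor of 2 for 5 carriers on each day and lay within it for the other 36. These intervals come from the fit without the experiment block. With the block no carrier passed on any of the 3 days, and the share of all genes with the block is not given here. Slc25a2 and Slc25a23, both low, were among the 5 on every day. Slc25a10 had a fold of 1.12 on day 4 (95% interval 0.675 to 1.87), Slc25a1 of 1.06 (95% interval 0.707 to 1.58) and Slc25a5 of 1.06 (95% interval 0.772 to 1.46).

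PY was also set against EV, with the same EV libraries as P. On day 4, 14 carriers were higher in PY and none lower, against 7.03% and 0.793% of all genes, and the median log2 fold change was 0.31 for the carriers and -0.05 for all genes. With the experiment block 16 were higher and 1 lower (all genes: 10.3% and 5.57%). Slc25a10 was at 45.0 to 394 CPM in PY day 4 (median 226, n = 6), 8.03-fold (95% interval 4.62 to 14.0, adjusted p = 4.19e-07). Folds over EV were 5.22 for Slc25a34, 3.46 for Slc25a1, 2.26 for Slc25a5 and 2.25 for Slc25a20. Passing in PY and not in P were Slc25a25 (2.16), Slc25a33 (1.97), Slc25a26 (1.52), Slc25a44 (1.43), Slc25a51 (1.34) and Slc25a46 (1.30). Leaving out 1 library was not followed gene by gene for Slc25a26 and Slc25a46. The PY call of Slc25a44 was lost without EV day 4 replicates 4, 5 or 6 or PY day 4 replicates 2 or 3 (fold 1.33 to 1.40, adjusted p = 0.0543 to 0.124), and that of Slc25a51 without EV day 4 replicates 4, 5 or 6 or PY day 4 replicates 2 or 3 (fold 1.27 to 1.33, adjusted p = 0.0523 to 0.117). Slc25a22 passed in P and not in PY (1.58, adjusted p = 0.0511). None of these 7 passed in the direct test of PY against P. On day 2, 6 carriers were higher in PY (among them Slc25a34, Slc25a10, Slc25a20, Slc25a1 and Slc25a51) and Slc25a37 was lower, with a fold of 0.625 (adjusted p = 0.0403), against 4.34% and 0.394% of all genes. With the experiment block the day 2 counts were 14 higher and 3 lower (all genes: 6.82% and 3.38%). The call of Slc25a1 was lost without EV day 2 replicates 1, 3, 4, 5 or 6 or PY day 2 replicates 4 or 5 (fold 1.64 to 2.02, adjusted p = 0.0629 to 0.234). The call of Slc25a51 was lost without EV day 2 replicates 4 or 6 (fold 1.35 to 1.38, adjusted p = 0.0577 to 0.0603), and that of Slc25a37 without EV day 2 replicates 2, 4 or 6 or PY day 2 replicates 1, 2, 4 or 5 (fold 0.606 to 0.693, adjusted p = 0.0537 to 0.196). The day 2 count was 3 without EV replicate 6, 4 without PY replicate 4 and 11 without PY replicate 3. On day 0 no carrier passed in edgeR or DESeq2, where 0.047% of all genes passed in edgeR. At an unadjusted p under 0.05 there were 0 carriers and 357 of the 17015 genes tested.

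The comparison of days showed how the carriers moved from day 0 on in each transfection. Every group received rosiglitazone at day 0, so its part cannot be told apart from time in culture or time since transfection. In EV between day 0 and day 4, 6 of the 41 carriers rose and 5 fell, close to the shares of all genes, 15.1% and 14.9%. The risers were Slc25a23 (4.82-fold), Slc25a42 (3.61), Slc25a35 (2.57), Slc25a34 (2.24), Slc25a10 (2.07) and Slc25a11 (1.74). Those that fell were Slc25a25 (fold 0.282), Slc25a33 (0.383), Slc25a37 (0.584), Slc25a26 (0.626) and Slc25a28 (0.659). With the experiment block the counts were 10 and 7 (all genes: 22.3% and 22.4%). The calls of Slc25a10, Slc25a34 and Slc25a35 were the least firm, with adjusted p of 0.0416, 0.0373 and 0.0294. The call was lost for Slc25a10 without EV day 0 replicates 1, 2, 3, 4 or 5 or EV day 4 replicates 1, 2, 4, 5 or 6 (fold 1.98 to 2.25, adjusted p = 0.0510 to 0.0922). It was lost for Slc25a34 without EV day 0 replicates 2, 4 or 5 or EV day 4 replicates 2, 5 or 6 (fold 1.92 to 2.32, adjusted p = 0.0511 to 0.132). It was lost for Slc25a35 without EV day 0 replicates 2, 4 or 5 or EV day 4 replicates 2 or 3 (fold 2.24 to 2.61, adjusted p = 0.0502 to 0.102).

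Slc25a42 was at 3.27 to 9.48 CPM in EV day 0 (median 7.72, n = 5) and 7.66 to 51.6 CPM in EV day 4, with 3.61-fold (95% interval 1.93 to 6.79, adjusted p = 0.00177). It rose in all 5 experiments that had both days, from different levels, so that the ranges overlapped. Slc25a23 was at 0.148 to 0.387 CPM on day 0 and 0.465 to 2.70 CPM on day 4, without overlap, 4.82-fold (95% interval 2.16 to 10.8, adjusted p = 0.00261). These are low levels, and EV day 4 replicate 2 held the highest. Without it the fold was 3.17 (adjusted p = 0.0271). Slc25a11 was at 28.9 to 60.7 and 62.3 to 104 CPM, without overlap (adjusted p = 0.00655).

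Slc25a25 fell in EV: it was at 36.5 to 157 CPM on day 0 and 17.2 to 37.4 CPM on day 4, 0.282-fold (95% interval 0.185 to 0.431, adjusted p = 2.12e-05). Slc25a33 was at 3.87 to 9.64 CPM on day 0 and 1.67 to 3.59 CPM on day 4 (adjusted p = 1.58e-04). Slc25a37 was at 51.2 to 79.8 CPM and then 29.0 to 44.9 CPM (adjusted p = 0.00272), and Slc25a28 at 26.6 to 31.6 CPM and then 15.7 to 24.4 CPM (adjusted p = 4.87e-04). Both mitoferrins and Slc25a33 thus stood below all day 0 libraries of EV by day 4, while the ranges of Slc25a25 touched. By day 2, Slc25a25, Slc25a33 and Slc25a28 had passed as lower in EV and none as higher, against 4.43% and 2.87% of all genes. With the block the day 2 count was 2 higher and 5 lower (all genes: 10.2% and 11.8%). Without any 1 of the EV day 0 replicates 2, 4 or 5 or the EV day 2 replicates 1, 2, 3, 5 or 6 the day 2 count was 0 or 1.

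**Figure D5:**
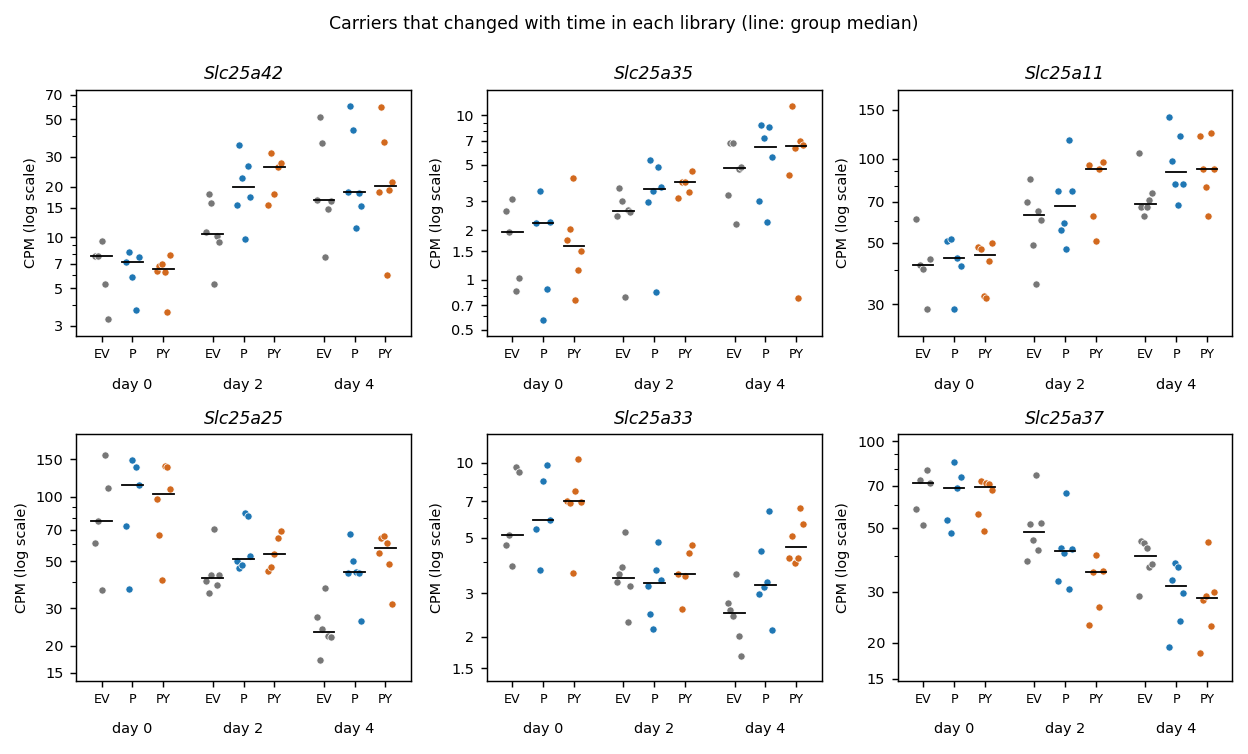
CPM of 6 carriers in each library (points, logarithmic vertical axis) by group (horizontal axis; grey EV, blue P, orange PY); black lines are group medians. Slc25a42, Slc25a35 and Slc25a11 are higher on day 4 than on day 0 in each transfection, and Slc25a25, Slc25a33 and Slc25a37 are lower, with Slc25a33 in PY at a fold of 0.685 (adjusted p = 0.0865).

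In P between day 0 and day 4, 15 carriers rose and 5 fell, against 18.7% and 18.6% of all genes. Slc25a10 rose 12.7-fold (95% interval 6.89 to 23.6, adjusted p = 4.99e-08), with 10.9 to 18.3 CPM on day 0 and 93.1 to 354 CPM on day 4. Slc25a34 rose 6.90-fold, Slc25a23 6.33-fold, Slc25a42 4.27-fold and Slc25a1 4.15-fold. The value of Slc25a23 rests on few counts, 5 to 39 per library in P on day 0 and 22 to 71 on day 4. Slc25a11 (2.28), Slc25a20 (2.04), Slc25a5 (1.92), Slc25a16 (1.71), Slc25a39 (1.59) and Slc25a3 (1.36) were also among the risers. The falls were those of Slc25a25 (fold 0.451), Slc25a37 (0.457), Slc25a45 (0.540), Slc25a33 (0.561) and Slc25a28 (0.675). The call of Slc25a3 was lost without P day 0 replicates 1 or 2 or P day 4 replicates 1 or 5 (fold 1.23 to 1.34, adjusted p = 0.0644 to 0.128). Slc25a33 lost its call without P day 0 replicate 4 (fold 0.634, adjusted p = 0.0636). That of Slc25a45, at 6.63 to 17.9 CPM on day 0 and 5.24 to 8.34 CPM on day 4, was lost without P day 0 replicates 3 or 4 or P day 4 replicates 1, 2, 3, 5 or 6 (fold 0.531 to 0.610, adjusted p = 0.0523 to 0.144). In PY 15 rose and 6 fell, against 19.7% and 17.8% of all genes, with Slc25a10 (13.9-fold), Slc25a23 (9.07) and Slc25a34 (7.36) at the top. Slc25a23 again had few counts, 0 to 28 per library in PY on day 0 and 13 to 116 on day 4. Those that fell in PY were Slc25a45 (0.399), Slc25a2 (0.438), Slc25a37 (0.446), Slc25a25 (0.548), Slc25a28 (0.585) and the aspartate/glutamate carrier Slc25a12 (0.699). Of these, Slc25a2 was low throughout, at 0.312 to 1.11 CPM in PY on day 0 and 0.0803 to 0.656 CPM on day 4. With the experiment block the counts to day 4 were 17 risers and 10 falls in P (all genes: 25.3% and 26.1%), and 17 and 10 in PY (all genes: 26.1% and 26.1%). Between day 0 and day 2, P had 9 risers and 5 falls (all genes: 6.99% and 6.98%) and PY had 12 and 6 (all genes: 11.4% and 11.4%). Without P day 2 replicate 5 the P count was 7 in all, and without P day 0 replicate 3 it was 9.

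Genes that work with the carriers were read from lists chosen by function, beside 5.18% of all genes higher and 0.2% lower in P against EV on day 4 (7.92% and 2.21% with the block). Of the family members under other symbols, 3 of 4 tested were higher in P on day 4. Mtch2, an outer membrane protein, was one (1.41-fold, adjusted p = 0.0118). The others were the uncoupling proteins Ucp2 and Ucp3, which had few counts in EV and passed the filter on low counts through the groups where they are high. Whether these genes were tested thus depended on those groups, so the count of 3 cannot be set against the share of all genes. Ucp3 had 0 to 12 counts per library in EV and 33 to 235 in P on day 4, or 0 to 0.386 and 1.29 to 13.1 CPM (adjusted p = 5.46e-06). Ucp2 had 1 to 8 and 12 to 257 counts, or 0.0521 to 0.316 and 0.725 to 10.8 CPM (adjusted p = 2.02e-04). The highest count of Ucp1, which makes heat in brown fat, was 10. Of 13 enzymes that work beside the citrate, malate-aspartate and carnitine shuttles, 8 were higher and none lower, with a median log2 fold change of 1.09 (all genes -0.06). They included the malate dehydrogenases Mdh1 (2.91-fold) and Mdh2 (1.80-fold), malic enzyme Me1 (2.34-fold), citrate synthase Cs (2.15-fold) and ATP citrate lyase Acly (1.55-fold). The carnitine enzymes Cpt2 (2.92-fold) and Crat (3.90-fold) were higher as well. Gpd1, the glycerol 3-phosphate dehydrogenase of the cytosol, was among the 8 with the highest fold (106-fold). Of 18 transporters of the inner membrane outside the family, 5 were higher, among them both subunits of the pyruvate carrier, Mpc1 (1.83-fold) and Mpc2 (2.05-fold). Of all genes 5.18% were higher. With the block 9 transporters were higher and 1 lower, against 7.92% and 2.21%. Of 16 parts of the machinery that imports carriers into mitochondria, Timm22 (1.47-fold, adjusted p = 0.00273) and Timm8a1 (1.95-fold, adjusted p = 0.0471) passed as higher, against 5.18% of all genes, and 7 passed with the block, against 7.92%. The fat cell markers rose in the same libraries, as given above.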

How the data were processed

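RNA from 51 libraries of C3H/10T1/2-SAM cells was sequenced after preparation with the TruSeq Stranded Total RNA kit and Ribo-Zero, per the labels' protocols. Reads were aligned with STAR 2.5.3a and counted per gene with featureCounts 1.5.2, and edgeR 3.22.0 was used, with builds mm10 and GRCm38, per the submitters' processing notes. The values used are the raw counts per gene as deposited by the authors, with no normalization. The annotation release and the strand setting are not given in the sources used here. Of the gene IDs, 53706 matched GENCODE M21 and 95 did not.

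Genes were filtered with filterByExpr, which left 17015, and fitted once with 9 group means by edgeR 4.0.16 (quasi-likelihood F test, TMM scaling, two-sided). P-values were adjusted by Benjamini-Hochberg over all genes tested, with a threshold of 0.05. The script was tested on simulated counts. CPM uses TMM-scaled library sizes, per-kb values use the union of exons, and 95% intervals come from the fitted standard errors. Alternatives were DESeq2 1.42.0, RLE size factors, no filter, a filter of 1 CPM in 5 libraries, the experiment number as a block, the fit without the 2 smallest libraries, and the fit without each library in turn. Groups and experiment numbers came from the labels, which give a number to each experiment. Deviations from group means had a median correlation of 0.475 over 192 pairs of libraries of one experiment. It was -0.12 over 963 pairs that differed in both experiment and group. R 4.3.3, Python 3.11.15, pandas 2.3.3 and matplotlib 3.10.9 were used, and motifs were searched by exact match of letters.

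Full values are given for up to 10 called carriers with the largest change in P against EV on day 4 (9 were called), the 5 largest on day 2, any called on day 0 or between PY and P, and the 3 largest in each direction over time in EV and P. They are also given for 12 carriers named for their function and for the highest and lowest per length. One carrier is counted but not reported here by name. The carriers and lists were chosen with earlier results of these data known.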

Additional observations from a re-analysis of the deposited data

Results flagged for a closer look

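Single libraries stood apart from the rest of their group, by Dixon's criterion, in 16 of 207 groups of values of the 23 named carriers. The criterion's rate of about 1 in 20 holds for independent, normally distributed values. These 207 groups share the same 51 libraries, so the 16 cannot be set against that rate. EV day 2 replicate 4 stood apart from the other libraries of its group in Slc25a20 (below) at 23.5 CPM against 29.8 to 33.3 CPM, Slc25a25 (above) at 70.9 CPM against 35.5 to 43.3 CPM and Slc25a37 (above) at 76.4 CPM against 38.5 to 52.2 CPM. EV day 4 replicate 1 stood above the other libraries of its group in Slc25a3 at 486 CPM against 279 to 351 CPM and Slc25a11 at 104 CPM against 62.3 to 75.4 CPM. EV day 4 replicate 2 stood above the other libraries of its group in Slc25a23 at 2.70 CPM against 0.465 to 1.19 CPM. EV day 4 replicate 3 stood above the other libraries of its group in Slc25a22 at 38.1 CPM against 23.9 to 28.9 CPM. EV day 4 replicate 4 stood above the other libraries of its group in Slc25a4 at 605 CPM against 337 to 433 CPM. P day 0 replicate 3 stood below the other libraries of its group in Slc25a1 at 54.8 CPM against 74.0 to 79.6 CPM. P day 0 replicate 4 stood below the other libraries of its group in Slc25a51 at 58.9 CPM against 67.7 to 71.3 CPM. P day 2 replicate 4 stood above the other libraries of its group in Slc25a37 at 66.0 CPM against 30.7 to 42.5 CPM. P day 2 replicate 5 stood above the other libraries of its group in Slc25a16 at 71.7 CPM against 41.8 to 46.1 CPM, Slc25a20 at 94.4 CPM against 41.5 to 59.4 CPM and Slc25a44 at 101 CPM against 65.6 to 77.3 CPM. P day 4 replicate 5 stood above the other libraries of its group in Slc25a5 at 561 CPM against 276 to 379 CPM. PY day 2 replicate 4 stood above the other libraries of its group in Slc25a13 at 17.7 CPM against 11.4 to 12.2 CPM.

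The P difference of Slc25a10 changed between day 0 and day 4, with a log2 change of 2.62 in the test of the change itself (adjusted p = 0.0223). It was lost without EV day 0 replicate 4 or P day 4 replicate 2 (fold 5.43 to 5.66, adjusted p = 0.0547 to 0.0583).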

How the results depend on the processing

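Of 109 calls of named carriers, 109 were kept by DESeq2, 109 with the experiment as a replicate block and 109 under the stricter filter. RLE scaling and the fit without the 2 smallest libraries each kept 108, and the fit without a filter on low counts, which adjusts over 43837 genes, kept 88. None of the 109 changed its sign in these 6 settings. With the replicate block, which uses the pairing of libraries by experiment, more carriers passed: 9 rather than 5 in P against EV on day 2, 14 rather than 9 on day 4, 17 rather than 7 in PY against EV on day 2, 7 rather than 3 in EV from day 0 to day 2, 17 rather than 11 in EV to day 4, and 3 rather than 1 for the change of the P difference to day 4. The block ended none of the 109 calls. Calls of carriers outside the 23, such as Slc25a2, Slc25a26, Slc25a28 and Slc25a46, are not among the 109. Leaving out 1 library was not followed gene by gene for them.

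Without a filter on low counts 3 carriers passed in P against EV on day 2, 0 in EV from day 0 to day 2 and 8 rather than 14 in P from day 0 to day 2. PY against EV on day 2 gave 11 under the stricter filter, 11 without the smallest libraries and 12 with DESeq2, and DESeq2 gave 2 for the change of the P difference to day 4. Leaving out 1 library at a time gave 2 to 6 in P against EV on day 2, 3 to 11 in PY against EV on day 2, 0 to 3 in EV from day 0 to day 2, 7 to 15 in P from day 0 to day 2 and 0 to 2 for the change to day 4. For P against EV on day 4 the range was 6 to 12.

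Values that did not pass and changed sign were those of Slc25a4, Slc25a33 and Slc25a42 in P against EV. For Slc25a4, P versus EV, day 2, the log2 difference was 0.00459 without a filter and -0.0722 to 0.00681 with 1 library left out. For Slc25a4, P versus EV, day 4, it was -0.146 to 0.102, for Slc25a33, P versus EV, day 2, -0.241 to 0.0289, and for Slc25a42, P versus EV, day 4, -0.165 to 0.626, the lowest without P day 4 replicate 2. The cause of these changes was not tested. Depth limits Slc25a23, Slc25a2 and Slc25a18, whose counts are low.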
